A study of Mus musculus with 8 samples.

Results

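The actin assembly, crosslinking and myosin genes described here are 59 genes chosen by name and not by a cut on their measured values. Earlier results of these data were known when they were chosen. Since genes without a row were left out, all 59 were among the 12589 rows of the deposited RNA-seq table. They cover the actins, the Arp2/3 complex and its activators, formins, depolymerising and monomer-binding proteins, capping and severing proteins, crosslinkers, adhesion adaptors, membrane linkers, non-muscle myosin with its partners, and coronins. The cells were mSSC-YFP, an established mouse spleen stromal line that expresses a fluorescent protein, so every sample came from 1 line. The labels list 4 samples that received the vehicle DMSO and 4 that received BMS493, an inhibitor of retinoic acid signaling, for 48 h in serum-containing medium. The level analysed is the authors' mean over all of these samples, which holds both treatments together. Levels of single samples were not analysed here, so neither a response to BMS493 nor a spread between samples can be given, the depth of each single library is not known here, and every difference below is a description without a test.

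Actin exists as monomers that join into filaments at one end and are lost at the other. The Arp2/3 complex, switched on by N-WASP and the WAVE complex, starts branches on existing filaments, whereas formins start and lengthen unbranched ones. Cofilins take filaments apart, profilins feed monomers back, capping proteins stop growth, and crosslinkers and non-muscle myosin turn the filaments into networks and contractile bundles. In fibroblastic stromal cells these structures carry cell shape, adhesion to matrix and contraction.

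The markers went with the stromal label, apart from stromal Lum and epithelial Cdh1. Of 11 stromal markers 10 had a row, and Lum had none. The 10 ran from 5.24 for Pdgfra to 13.3 for Col1a1 in mean log2 expression, and all were above the median of all genes, 4.99. None of the 6 haematopoietic markers, Ptprc among them, had a row. Of 4 endothelial markers 2 had a row, Pecam1 at 0.47 and Kdr at 2.83, both below that median. Epithelial Krt8 and Krt18 were at 1.55 and 0.31, but Cdh1, which encodes the epithelial adhesion protein E-cadherin, was at 8.03. Whether Cdh1 has any bearing on the actin genes was not tested.

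As a group, the 59 listed actin genes were among the higher expressed genes of these cells. In mean log2 expression they ran from 3.61 to 12.16 with a median of 7.93, and 56 of the 59 were above the median of all genes. After conversion from logs they made up 3.17% of the summed level of all genes, and the 5 highest of them, Actb, Flna, Myh9, Cfl1 and Zyx, held 43.4% of the members' sum. For comparison between genes, each level was taken out of logs and divided by the kilobases that the gene's exons cover, which is called the per-kilobase level here. On that scale the members' median was 57.6, against 7.22 over all 12364 genes with a length. Of the 59, 32 lay in the top band of per-kilobase levels, above 42.2, which by construction holds 10.0% of all genes. Below the median of all genes, where 50.0% of genes lie by construction, there were 6 members: the formins Daam1, Diap2 and Fmnl2, the kinases Limk1 and Mylk, and the filament-end protein gene Enah. The lower border of the top band fell inside the list, with Actr2 at 51.0 just above it and Actg1 at 42.0 just below, and Pfn2 at 7.41 was the member nearest above the median.

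**Figure D1:**
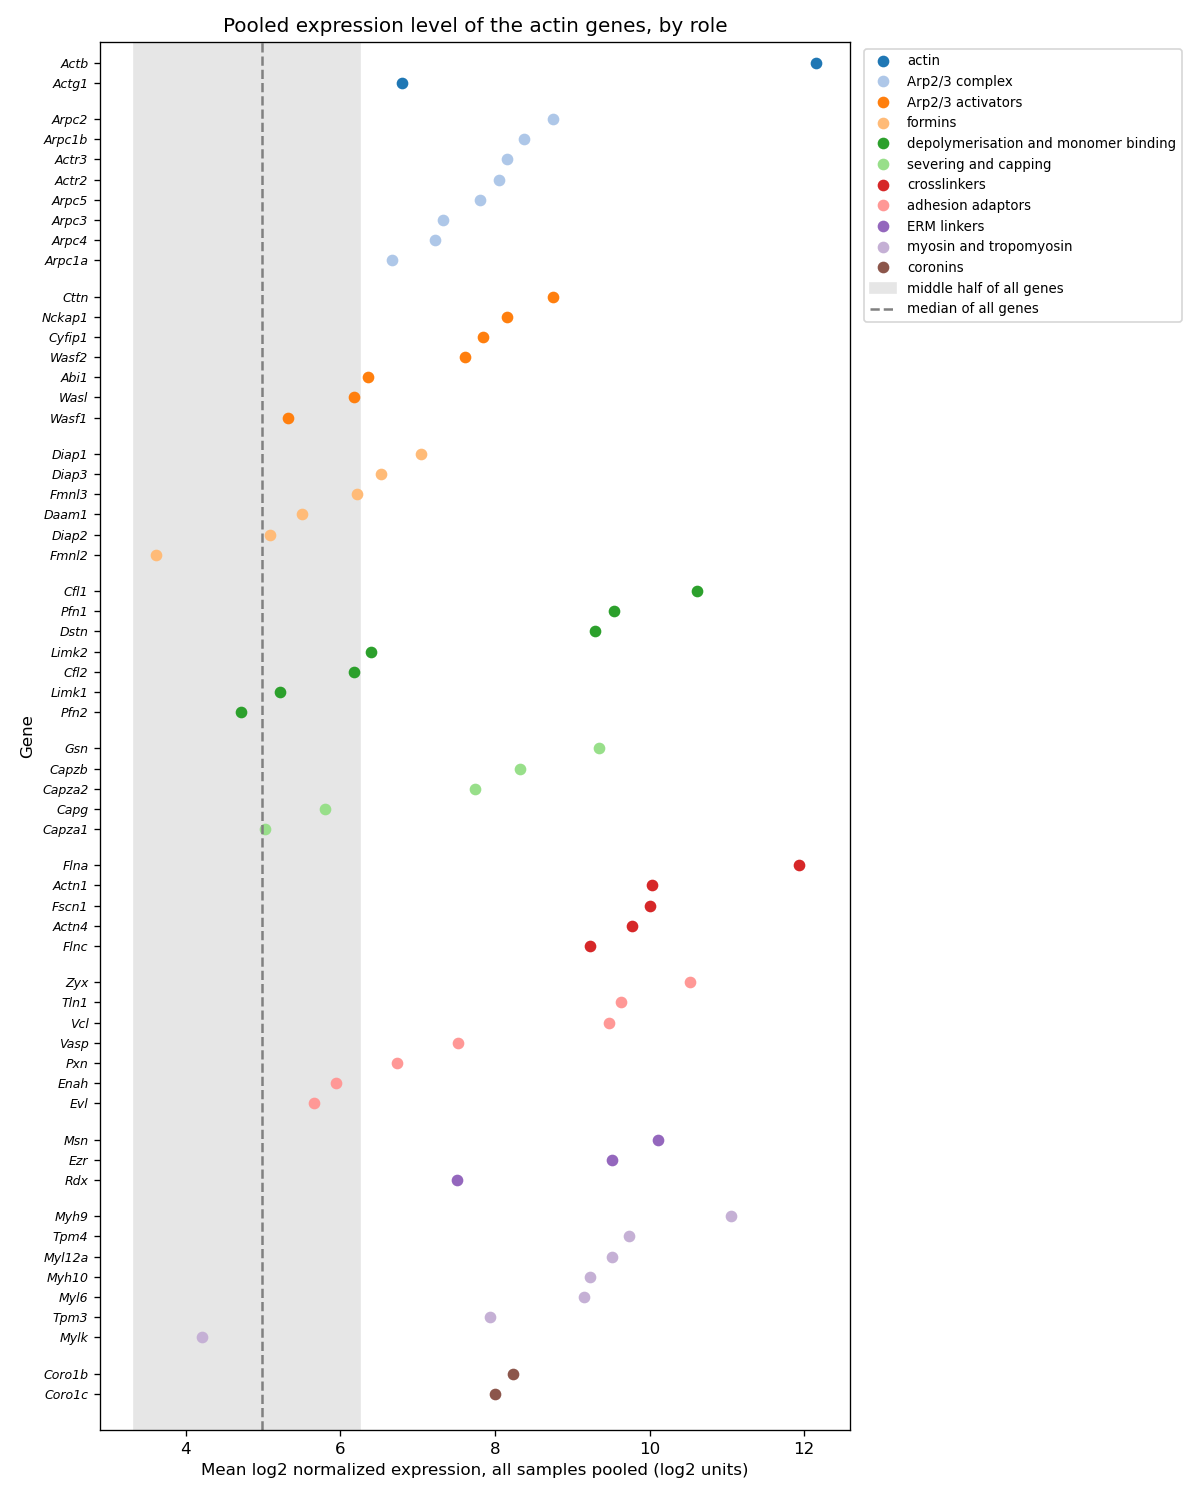
Mean log2 normalized expression of each of the 59 genes, all samples pooled (horizontal axis, log2 units), with genes on the vertical axis grouped and coloured by role. The grey band spans the quartiles of all genes, 3.33 to 6.25, and the dashed line is their median, 4.99; Pfn2, Mylk and Fmnl2 are the 3 members to its left.

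The cytoplasmic actins were far apart. Actb, on chromosome 5 from 142903115 to 142906754 of GRCm38 (minus strand), had a mean log2 expression of 12.16, the highest of the 59. Actg1, the gene of the other actin of non-muscle cells, on chromosome 11 from 120345690 to 120348542 (minus strand), was at 6.80. Per kilobase the levels were 1703 and 42.0, so that Actb stood 40.6-fold above Actg1 and held 97.6% of their sum. Of the 100-base windows of the longest protein-coding Actg1 transcript, 51.1% also occur in transcripts of other loci, all 6 of them annotated pseudogenes, whereas for Actb the share was 1.10%. The authors counted uniquely mapped reads, and the part of such windows in the Actg1 level was not tested. Among the muscle actins, Acta2 was at a mean log2 expression of 11.53 and Actg2 at 7.42, while Acta1 was at 0.09 and Actc1 had no row. Of 7 muscle forms of the members' genes 4 had a row, the other being Actn3 at 0.21.

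The Arp2/3 complex was the most even of the larger groups. It consists of the actin-related proteins Arp2 and Arp3 and the Arpc subunits, which assemble in equal numbers. Its 8 genes ran from 39.6 per kilobase for Arpc1a to 213 for Arpc2, a 5.37-fold range, and 7 of the 8 were in the top band, that is, among the highest 10.0% of all genes. The gene of Arp2, Actr2, was at 51.0 per kilobase. Actr3, the gene of Arp3, was at 61.4. Among the smaller subunits Arpc3 was at 58.3, Arpc4 at 64.6 and Arpc5 at 98.8 per kilobase. On this scale the genes of the complex other than Arpc2 and Arpc5 thus lay between 39.6 and 65.0. With the longest transcript as the length Arpc3 was above Arpc5, at 7.49 against 6.88 on the log2 scale, and Arpc1a was at 5.91. Arpc1a and Arpc1b encode alternatives for the same place in the complex, and Arpc1b, at 65.0 per kilobase, was 1.64-fold above Arpc1a, or 3.27-fold without division by length. Arpc1b and the neighbouring gene Pdap1 overlap, and 31.1% of the windows of its longest protein-coding transcript are shared with that gene or a pseudogene. For Actr3, 22.4% of the windows occur in 2 pseudogenes elsewhere.

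Below the complex came its activators, with a median of 20.4 per kilobase over 7 genes. Cortactin, which stabilises branches and is encoded by Cttn, was the highest at 103 per kilobase. Of the WAVE complex, the scaffold gene Nckap1 was at 57.6, Cyfip1 at 19.3 and Abi1 at 20.4 per kilobase. Of its catalytic members, Wasf2 was at 31.3 and Wasf1 at 14.0, a 2.24-fold difference that was 4.91-fold without division by length. N-WASP, encoded by Wasl, was at 11.7 per kilobase, below Wasf1, but with the longest transcript as the length or without division by length Wasf1 was the lower. Of the 7, only Cttn and Nckap1 were in the top band, which holds 10.0% of all genes. The lowest Arp2/3 subunit gene, Arpc1a, lay above 5 of the 7 activators, or above 3 of them without division by length.

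The formins were the group with the lowest median, 10.2 per kilobase. None of the 6 was in the top band of per-kilobase levels, which holds 10.0% of all genes. Of the 6, 3 were below the median of all genes, where 50.0% of genes lie. These 2 counts are near the shares over all genes and do not set the formins apart from them. Diap1, Diap2 and Diap3 are the table's older symbols for the Diaphanous formins Diaph1, Diaph2 and Diaph3. Diap1 was at 20.9 per kilobase and Diap3 at 16.5, while Diap2 was at 2.96. Daam1, a formin of the Wnt planar polarity pathway, was at 5.62. Of the FMNL formins, Fmnl3 was at 14.8 and Fmnl2 at 2.17 per kilobase, a 6.84-fold difference, and Fmnl2 also had the lowest mean log2 expression of all 59 genes, 3.61. Per kilobase the highest formin among the members, Diap1, was below Arpc1a, the lowest of the 8 Arp2/3 genes. Without division by length Diap1 was above Arpc1a, at 7.05 against 6.67 in mean log2 expression. Arp2/3 subunit genes that are no members were lower than Diap1, with Arpc5l at 9.31 and Actr3b at 0.865 per kilobase. Formins that are no members were not all lower: Daam2 was at 21.5 per kilobase, and Inf2 at 40.9 was above the 39.6 of Arpc1a.

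**Figure D2:**
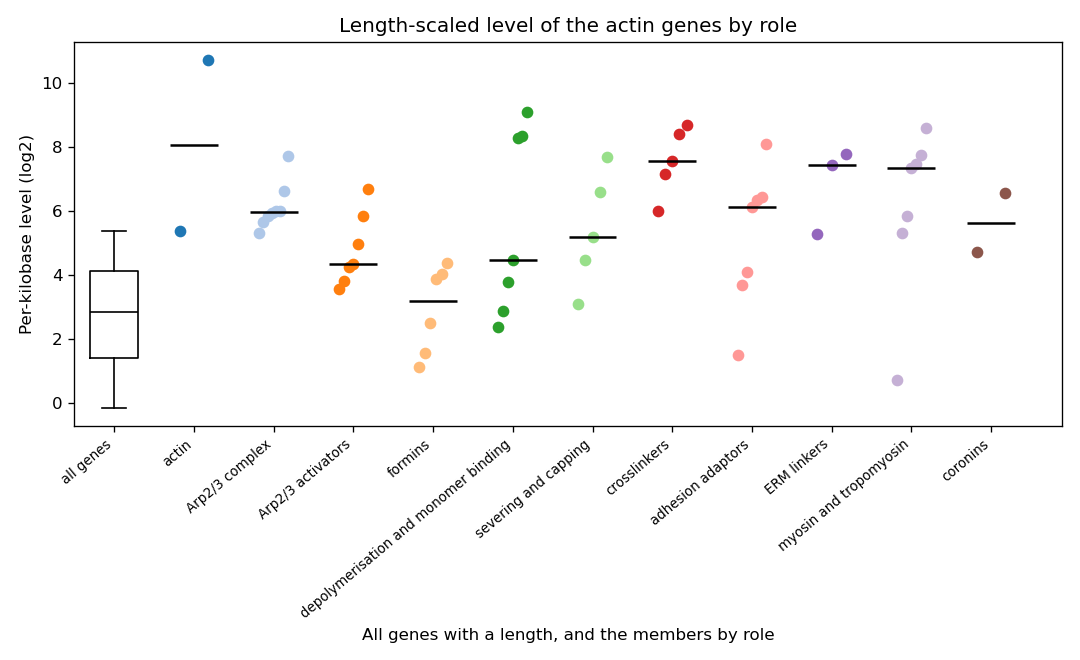
Per-kilobase level on a log2 scale (vertical axis) for all 12364 genes with a length (box: quartiles, whiskers: 10th to 90th percentile) and for the members by role (points: genes, black bars: medians). The 6 formins have the lowest median, 3.19 on the log2 scale, against 5.98 for the 8 genes of the Arp2/3 complex and 7.57 for the 5 crosslinkers.

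Genes of filament turnover ran from 553 down to 5.19 per kilobase, and 3 of the 7 were in the top band, which holds 10.0% of all genes. Cfl1, the gene of cofilin, which severs filaments, lies on chromosome 19 from 5490455 to 5495201 and was at 553 per kilobase, second among the members to Actb. Dstn, which encodes the related actin-depolymerising factor, was at 329, so that Cfl1 was 1.68-fold higher. The muscle-type cofilin gene Cfl2 was at 22.2 and held 2.45% of the family's sum. The profilin gene Pfn1 was at 310 per kilobase, 41.9-fold above Pfn2, which was at 7.41. The LIM kinases, which switch cofilin off by phosphorylation, were far below Cfl1. Limk2 was at 13.9 per kilobase, above the median of all genes, 7.22, and Limk1 was below it at 5.19.

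Among the capping and severing genes, gelsolin (Gsn), which severs and caps filaments in response to calcium, was the highest at 207 per kilobase. The capping protein that covers the growing end is made of an alpha and a beta chain. The beta chain gene Capzb was at 97.5 per kilobase, above both alpha chain genes, Capza2 at 36.4 and Capza1 at 8.60. Capza2 was 4.24-fold above Capza1, or 6.60-fold without division by length. Of the windows of the longest protein-coding Capza1 transcript, 60.9% occur in 2 pseudogenes elsewhere, the largest such share among the members, and the part of this in its level was not tested. Capg, a capping protein related to gelsolin, was at 22.1 per kilobase.

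All 5 crosslinkers were in the top band, which holds 10.0% of all genes. The filamin gene Flna, on the X chromosome from 74223461 to 74249820, had the second highest mean log2 expression of the members, 11.93, and was at 415 per kilobase. Flnc, known from muscle, was 6.49-fold lower at 63.9. Fscn1, the gene of fascin, which bundles filaments in filopodia, was at 342 per kilobase. The alpha-actinin genes were close to each other, with Actn1 at 189 and Actn4 at 143 per kilobase, a 1.32-fold difference.

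The adaptors of adhesion sites differed more. Zyxin (Zyx), which is found on tensed filaments and adhesions, was at 273 per kilobase, with vinculin (Vcl) at 86.9 and talin (Tln1) at 81.2. Paxillin (Pxn), an adhesion scaffold, was at 13.0. Of the Ena/VASP proteins, which keep filament ends growing, Vasp was at 70.4 and Evl at 17.1 per kilobase. Enah was at 2.87, but its exons cover 21.5 kb, the most of any member, and without division by length its mean log2 expression of 5.94 was above the 5.66 of Evl. For Vcl, 38.6% of the windows of the longest protein-coding transcript are shared, on either strand, with Ap3m1, which overlaps it.

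The ERM proteins tie filaments to the plasma membrane. In mean log2 expression, moesin (Msn) was at 10.12, ezrin (Ezr) at 9.52 and radixin (Rdx) at 7.51. Per kilobase of exons the order of the first pair was the other way round, with Ezr at 223 and Msn at 175, while Rdx was at 39.2. With the longest transcript as the length Msn was above Ezr by 0.32 on the log2 scale. The order of Ezr and Msn thus rested on the choice of length, whereas Rdx was the lowest under each choice tried.

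Non-muscle myosin II was represented by its heavy chain genes Myh9 and Myh10, at 164 and 57.5 per kilobase. Myh9, on chromosome 15 from 77760587 to 77842175, was 2.85-fold the higher and had a mean log2 expression of 11.05. The light chain genes Myl12a and Myl6 were at 218 and 179 per kilobase, above both heavy chain genes on this scale. With the longest transcript of any type as the length Myl6 was below Myh9, at 7.55 against 8.15 on the log2 scale. That length was 3040 bases for Myl6, whose longest protein-coding transcript has 1668 bases, and the order with the latter was not tried. Without division by length both light chain genes were below Myh9 and Myl6 was below Myh10. Mylk, which encodes the kinase that phosphorylates the regulatory light chain, was at 1.64 per kilobase, the lowest of all members on this scale, whereas with the longest transcript as the length or without division by length Fmnl2 was the lowest. Of the tropomyosins, which lie along the filament, Tpm4 was at 385 per kilobase and Tpm3 at 40.2. This 9.59-fold gap was 3.87-fold with the longest transcript as the length and 3.47-fold without division by length. Of the windows of the longest protein-coding Tpm3 transcript 45.7% also occur in Tpm3-rs7, a related gene elsewhere. The coronin genes Coro1b and Coro1c, whose products act on branches, were at 94.4 and 26.5 per kilobase. Without division by length they were close, with Coro1b 1.18-fold above Coro1c.

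**Figure D3:**
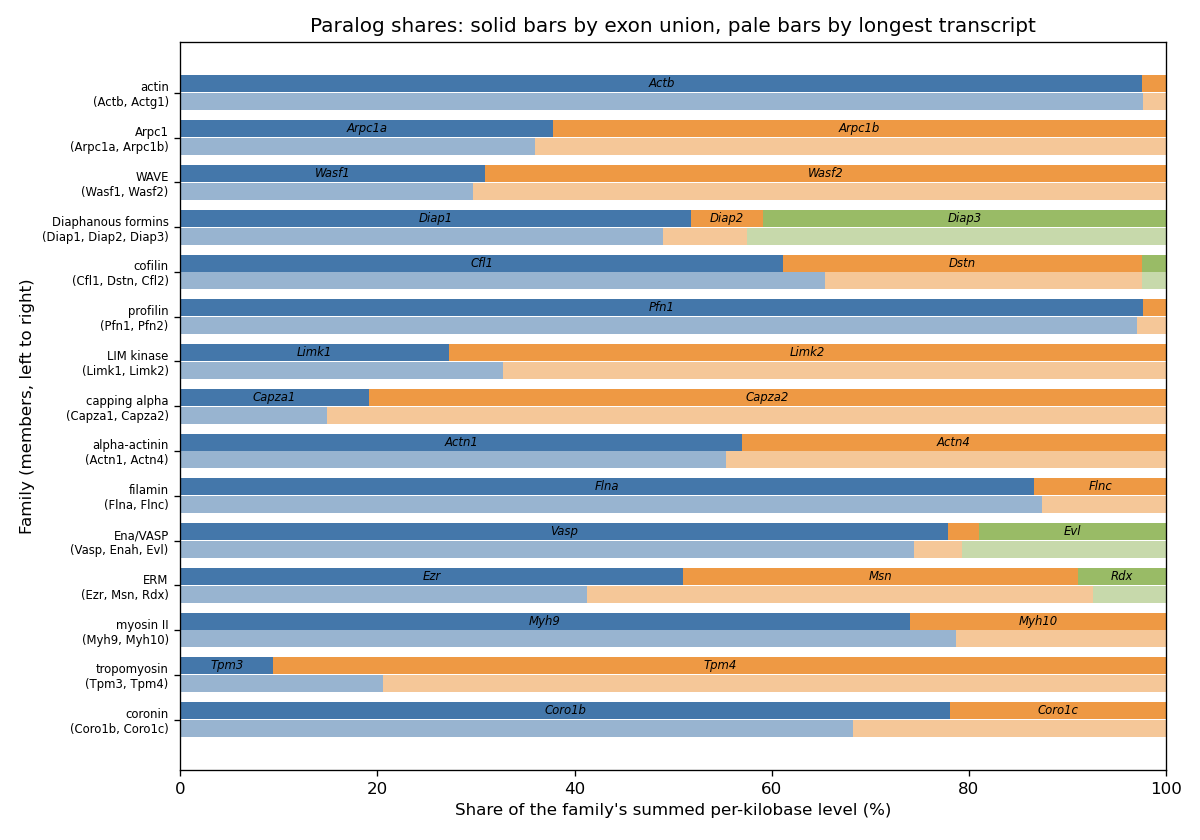
Share of each paralog in its family's summed per-kilobase level (horizontal axis, %), with families on the vertical axis and their members named from left to right; solid bars divide by the length of all exons together, pale bars by the longest transcript. Actb and Pfn1 each hold over 97% of their pair, and Ezr and Msn are the pair whose order turns with the choice of length.

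Sequence shared with other genes, overlapping neighbours included, was found in 24 of the 59 members, and in 17 it covered over 5% of the windows of the longest protein-coding transcript. With genes at another locus alone, 46 members shared no window, 13 shared at least 1, and 6 shared over 5%. Those 6 were Capza1, Actg1, Tpm3, Actr3, Myl6 and Tpm4. Of them, Capza1, Actg1 and Tpm3 are each the lower gene of the pair described above, Tpm4 is the higher gene of its pair, and Actr3 and Myl6 are in no such pair. Whether shared sequence bears on these levels was not tested. These windows were compared with annotated transcripts only, over 100 bases without a mismatch. Strand was ignored, so sequence of a gene on the opposite strand counts as shared although the libraries were strand-specific.

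**Figure D4:**
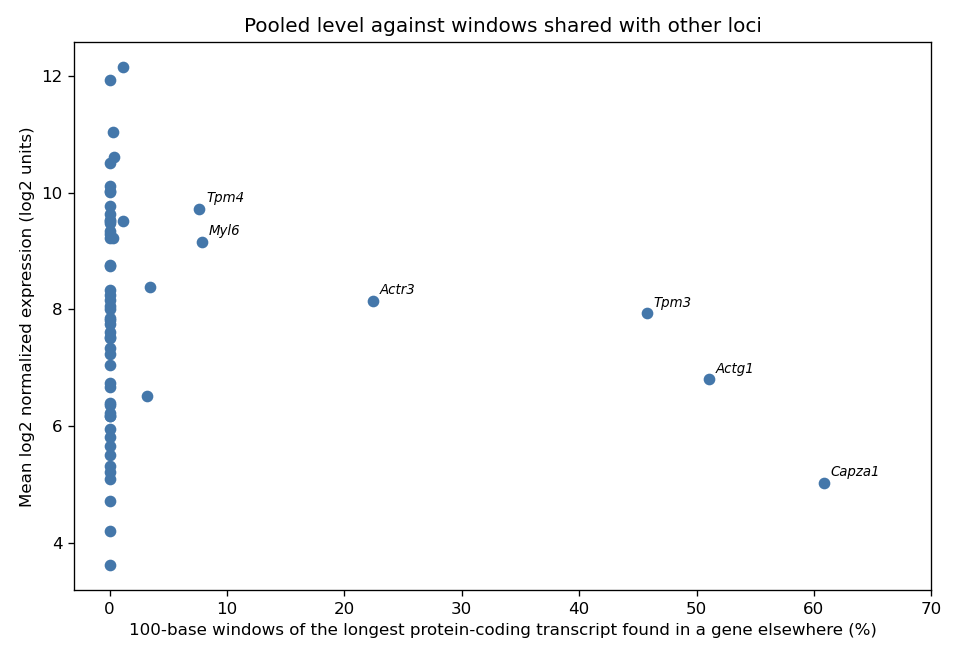
Mean log2 normalized expression (vertical axis, log2 units) against the percentage of 100-base windows of the longest protein-coding transcript that also occur in a gene at another locus (horizontal axis), 1 point per member. The 6 members above 5% are named; Capza1 and Actg1, at 60.9% and 51.1%, lie farthest to the right.

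Promoter sequence is shown for the members that carry a serum response element core, because the serum response factor that binds it is known to control many actin genes. The core searched was CC, then 6 letters that are each A or T, then GG, which reads the same pattern on both strands. RefSeq windows from 250 bases before to 50 bases after the transcript start on GRCm38.p6 were found for 52 of the 59 genes, and 4 of the 52 (7.69%) held the core. Over all 27025 genes with such a window 1.81% held it, and 1.62% of the 9284 that are in the table did. The sequences below run 5′ to 3′ along the gene's strand, with the core in capitals. They lie at chr11:120348551-120348610 (minus strand) for Actg1, chr14:20929148-20929205 (plus strand) for Vcl, chr10:128493025-128493084 (minus strand) for Myl6 and chr6:113377863-113377897 (plus strand) for Arpc4.
Actg1: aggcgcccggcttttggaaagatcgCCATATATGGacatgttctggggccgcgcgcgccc
Vcl: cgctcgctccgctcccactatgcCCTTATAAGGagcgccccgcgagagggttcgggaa
Myl6: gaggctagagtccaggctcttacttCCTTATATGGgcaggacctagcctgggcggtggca
Arpc4: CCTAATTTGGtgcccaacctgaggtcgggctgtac

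The core starts 90 bases before the transcript start in Actg1, 227 in Vcl and 250 in Arpc4, where it opens the window, and 50 bases before 1 of the 2 starts of Myl6. The 4 genes had mean log2 expression values of 6.80, 9.48, 9.16 and 7.23 in the order printed, within the range of 3.61 to 11.93 of the 48 genes without the core in their window. The medians were 8.19 and 7.87. No window was found for Actb, Cttn, Coro1b, Cyfip1, Diap1, Pxn and Nckap1.

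Of 57 further genes of the pathway, listed by hand, 48 had a row and 35 of these were above the median of all genes. Their median was 6.70 in mean log2 expression, against 7.93 for the members. Per kilobase the gap was wider: their median was 10.2, against 57.6 for the members and 7.22 over all genes with a length. The monomer-binding thymosin gene Tmsb4x was at 1204 per kilobase, above every member but Actb on that scale. Of the tropomyosins that are no members, Tpm1 was at 365 per kilobase of exons, but in mean log2 expression it was at 11.21 against 9.73 for Tpm4. Of 10 leukocyte forms of these genes 3 had a row: Lsp1 at 5.18, Fmnl1 at 2.73 and Lcp1 at -0.31 in mean log2 expression. Was, Nckap1l, Hcls1, Coro1a, Rac2, Parvg and Fermt3 had none.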

How the data were processed

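The RNA-seq used strand-specific single-end mRNA libraries, although the labels' extraction text describes array and qPCR preparation. Per the labels, the submitters' processing notes name FastQC, STAR 2.3.0e, limma and the builds mm10 and GRCm38. According to the methods, uniquely mapped reads were counted on Ensembl genes and scaled by weighted trimmed means. The authors deposited 1 table. Its mean log2 normalized expression over all samples was used, with decimal commas converted. Its other columns hold the authors' own comparison of BMS493 with DMSO (fold change, t, p and adjusted p) and were not used. Whether an offset was added before logs, and which genes were filtered out, is not given in the sources used here. A treatment test needed values per sample and was not run. Levels taken out of logs summed to 989265.

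The table has 1 symbol on more than 1 row, whose 2 rows were left out. Of the other 12587 genes, 11765 matched GENCODE M21 (GRCm38) by symbol and 599 by a RefSeq synonym, so 98.2% had a length. All 59 members matched, 3 of them by synonym. Length was the union of a gene's exons. The longest transcript, used as an alternative length, was taken over transcripts of every type, coding or not. For the shared windows only protein-coding transcripts were considered, so the 2 can differ. Percentiles and windows were computed in Python 3.11.15 with numpy 2.4.6 and pandas 2.3.3, and the ranking and length steps were tested on simulated data. Every member with a row could be named by role, and other genes as paralogs or markers. Thymosin, Ilk, Parva and Fermt2 fall outside that rule and were chosen after their values were seen. Some genes are not reported here. The members and lists were chosen with earlier results of these data known, and the paralog pairs, shared windows and promoter search were added after the levels were seen. Proteins were not printed, since no sequences were at hand.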

Additional observations from a re-analysis of the deposited data

How the results depend on the processing

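No paired analysis was possible because levels of single samples were not analysed here, and for the same reason DESeq2, other filters, the replicate block and leaving out replicates were not run. The count of members in the top 10.0% of genes, 32, was 36 with the longest transcript as the length, 37 without division by length, 33 among protein-coding genes and 32 among genes with a mean log2 level of at least 1. The count below the median of all genes, 6, fell to 3 without division by length and was 5, 6 and 7 under the other alternatives. Of the 20 paralog differences, tried under 2 alternatives added after the data were seen, 2 changed direction under at least 1 of them and the other 18 kept theirs, though several folds moved by more than 1.5 times. Msn minus Ezr was -0.35 on the log2 scale, 0.32 with the longest transcript and 0.60 without division by length. Enah minus Evl was -2.58, and 0.29 without division by length. Lengths from the annotation ignore which isoforms the cells use. No interval can be given for any level, since counts per library and the spread between samples are not known here.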

Other observations

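Among the further genes of the pathway, Ilk, which encodes the integrin-linked kinase of adhesion sites, had a mean log2 expression of 0.42, at percentile 3.08 of all genes, whereas its partner Parva was at 8.68 and Fermt2, another adhesion gene, at 7.87. Ilk was singled out after its value was seen, and its low level was not examined further. Cdh1 was at percentile 95.1 of all genes in the table while Epcam had no row. Acta2, the smooth muscle actin gene, was at 1345 per kilobase, below Actb and above the other 58 members on that scale, whereas Flna was above it without division by length.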
